A study of Mus musculus with 20 samples.

Results

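Interferon-response genes are transcribed when interferons, cytokines released on infection or activation, bind their receptors. The set held 46 such genes of mouse CD4 T cells, chosen by symbol from the 30199 gene names in the scanner files, and each was represented by its brightest probe. All 46 were on the array, and all 46 passed the filter on dim probes, which required that 1 or more of the groups with 2 arrays had it detected on both. Of these, 43 were detected on all 20 arrays. Mx1 was detected on 18 arrays, and Oas2 and Ifi44 on 9 arrays each.

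The arrays measured CD4 T cells that were sorted from B6.Cg-Foxp3<tm1Mal> mice of mixed sex aged 8 to 14 weeks, in which EGFP reports Foxp3, so every group carried the reporter allele. Peripheral lymph nodes (pLN) were taken 12 or 25 days after subcutaneous immunisation with keyhole limpet haemocyanin in alum. Peyer's patches (PP), the lymphoid follicles of the gut wall, came from mice for which the labels name no immunisation. The wording of the methods can be read to cover these mice as well. In pLN, 4 cell types were sorted: naive T cells (GFP-, low PD1, GL7-), follicular helper cells (TFH: GFP-, high PD1, GL7+), regulatory cells (Treg: GFP+, low PD1, GL7-) and follicular regulatory cells (TFR: GFP+, high PD1, GL7+ or GL7-). PP gave Treg and TFR cells and both a GL7+ and a GL7- gate of TFH cells, but no naive cells. Each array held RNA of cells pooled from 8 to 15 mice, and the pLN d12 and PP groups each had 2 arrays from independent experiments, the pLN d25 groups 1.

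Type I interferons signal through Ifnar1 and Ifnar2 and act on target genes at interferon-stimulated response elements (ISRE) in promoters, where Stat2 and Irf9 take part. Interferon gamma signals through Ifngr1 and Ifngr2 and acts at gamma-activated sites (GAS). The target genes encode antiviral effectors, sensors of foreign nucleic acid, large GTPases that attack the vacuoles of intracellular pathogens, and the proteins that cut and transport peptides for presentation on MHC class I. T cells express many of them at a basal level.

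Promoters in RefSeq's table (GRCm38.p6, 250 bases before to 50 bases after the transcription start) were found for 34 of the 46 members. The ISRE core, searched as GAAANNGAAA on both strands, stood in the promoters of 17 of the 34 (50%), and in those of 3.99% of the 27025 genes in the table. The GAS core TTCNNNGAA, which is the same on both strands, stood in the promoters of 13 of the 34 members (38.2%) and of 9.55% of all genes. Both motifs were present for 6 members (Bst2, Oas1a, Gbp5, Gbp7, Igtp and Irgm2) and neither for 10. A match describes the letters only. Of the members called between TFH and naive cells, the 4 with a motif in a tabulated promoter and the largest differences are printed below as the 250 bases before the start, 5′ to 3′ on the gene's strand, with the ISRE and GAS cores in capitals.
Ifit3: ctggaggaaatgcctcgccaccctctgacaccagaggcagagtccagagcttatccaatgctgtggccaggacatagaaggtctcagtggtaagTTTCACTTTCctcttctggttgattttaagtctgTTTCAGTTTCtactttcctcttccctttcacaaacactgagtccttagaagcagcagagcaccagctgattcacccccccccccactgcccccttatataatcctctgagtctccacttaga
Gbp7: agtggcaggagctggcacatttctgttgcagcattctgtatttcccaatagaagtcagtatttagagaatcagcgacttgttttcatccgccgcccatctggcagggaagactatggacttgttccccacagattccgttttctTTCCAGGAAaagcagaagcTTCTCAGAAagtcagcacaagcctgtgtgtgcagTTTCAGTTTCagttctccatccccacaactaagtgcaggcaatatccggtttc
Ifit2: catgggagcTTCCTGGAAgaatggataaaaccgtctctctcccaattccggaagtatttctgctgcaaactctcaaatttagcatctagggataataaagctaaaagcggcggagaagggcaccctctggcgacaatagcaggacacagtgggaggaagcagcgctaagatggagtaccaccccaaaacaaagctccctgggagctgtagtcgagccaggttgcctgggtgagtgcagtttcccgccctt
Bst2: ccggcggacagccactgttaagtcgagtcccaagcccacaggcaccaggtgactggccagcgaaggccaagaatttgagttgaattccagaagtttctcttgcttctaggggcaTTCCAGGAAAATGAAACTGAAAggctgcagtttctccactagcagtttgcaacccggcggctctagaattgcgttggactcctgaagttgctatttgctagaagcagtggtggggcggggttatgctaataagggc
The Ifit3 promoter (chr19:34583279-34583528, plus strand) held ISRE cores that begin at -156 and -122 bases from the start. The Gbp7 promoter (chr3:142530086-142530335, plus strand) held an ISRE core at -53 and GAS cores at -106 and -87. The Ifit2 promoter (chr19:34550444-34550693, plus strand) held a GAS core at -241 alone, and its other tabulated start held neither motif. In the Bst2 promoter (chr8:71537473-71537722, minus strand), a GAS core at -136 ran into ISRE cores at -130 and -124, so that the capitals form 1 block of overlapping matches.

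The sorted cells carried the markers of their labels. The 6 CD4 T cell markers were detected on all 20 arrays. The summed intensity of the 4 regulatory markers was 41719 to 95664 on Treg and TFR arrays and 422 to 9015 on the others. That of the 5 follicular markers was 139943 to 616524 on TFH and TFR arrays against 20062 to 88102 on naive and Treg arrays. These lists include Foxp3 and Pdcd1, on whose reporter and product the cells were sorted, so part of this separation was set by the gates. The 4 naive markers summed to 312220 to 346910.5 on naive arrays and 274462 to 307505 on Treg arrays. On TFH and TFR arrays they summed to 8180 to 114618.5. Slide and tissue coincided: slides 1 to 3 held pLN (d12 replicate 1, d12 replicate 2 and d25) and slides 4 and 5 held PP (replicates 1 and 2). B-cell markers were highest on the Treg and TFR arrays of slide 4, where they summed to 117586 and 177225. The TFH arrays of slide 4 read 44773 (GL7+) and 25427 (GL7-), and the other 16 arrays 4661 to 26354. All 12 markers were detected on each array of slide 4, on the first TFH array of pLN d12 and on the second GL7+ TFH array of PP. Epithelial markers summed to 3953 to 8748 on slide 4 and 417 to 2369.9 elsewhere. Of 10 dendritic cell and macrophage markers, 4 to 8 were detected per array. Csf1r, Lyz2, Cd68 and Siglech were detected on all 20 arrays, Emr1 on 12, Itgax on 9, Fcgr1 on 6 and Cd209a on 3. The dendritic cell markers Xcr1 and Clec9a were detected on no array. These markers summed to 93292 to 106646 on slide 5 and 44299.9 to 76477 elsewhere, and most of it came from the Siglech probe. In RNA from sorted pools, fewer cells of a type and less RNA per cell cannot be told apart.

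Across the 20 arrays, the interferon-response genes were highest in naive and Treg cells of pLN and lowest in the follicular cells of PP. Each member's log2 intensity was set relative to its own mean over all arrays, and the median over the 46 members was then taken per array. This median ranged from 0.20 to 0.57 on the naive arrays and from 0.46 to 0.91 on the Treg arrays of pLN. It was -0.28 to 0.12 for pLN TFH, -0.18 to 0.37 for pLN TFR and 0.01 to 0.26 for PP Treg. The 6 arrays of PP TFH and TFR lay between -0.79 and -0.54, below all 14 other arrays. Within the d12 groups, replicate 2 lay above replicate 1 for all 4 cell types, with a median difference over the members of 0.26 to 0.52.

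**Figure D1:**
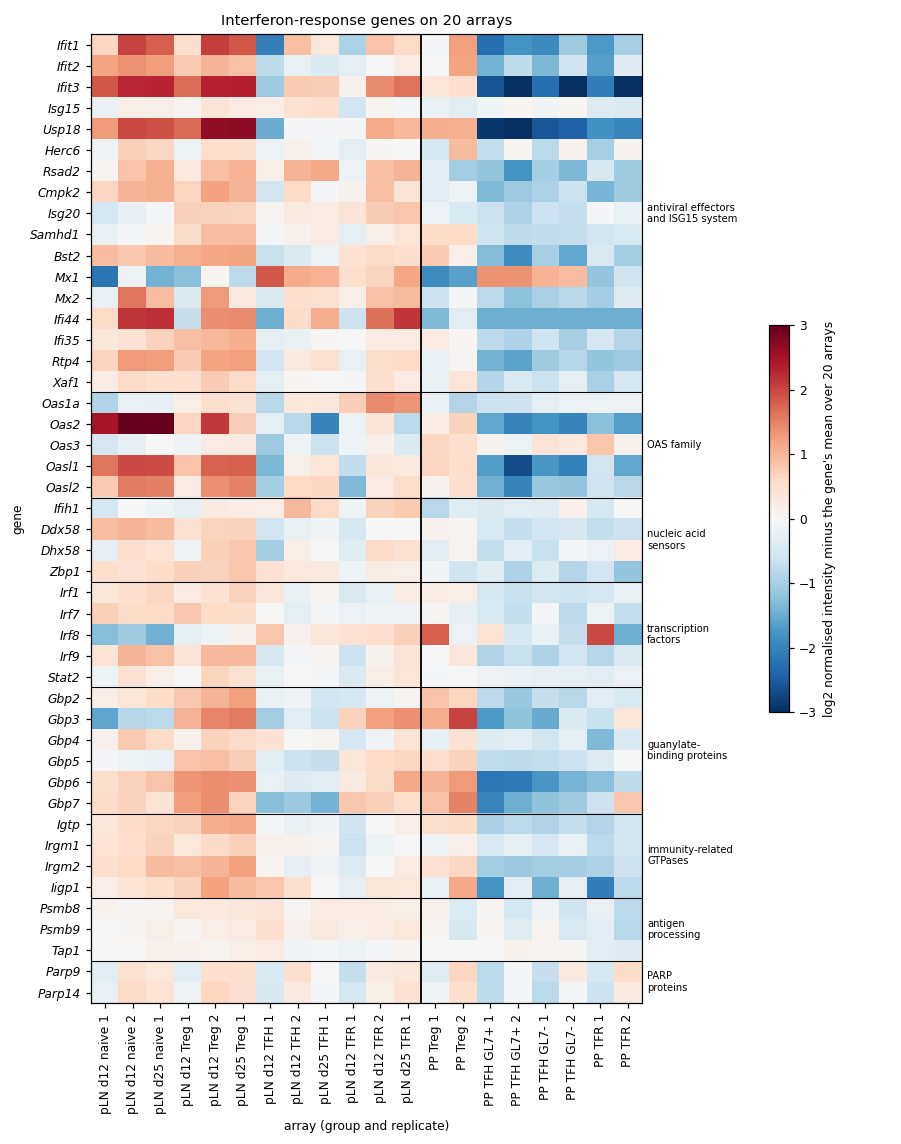
Heat map of the 46 interferon-response genes (rows, by role) on the 20 arrays (columns, pLN left and PP right of the vertical line), coloured by log2 normalised intensity minus the gene's mean over the arrays. Naive and Treg columns of pLN are mostly red, the PP TFH and TFR columns mostly blue, while Mx1 is red in the TFH columns.

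A limma F test over the 12 groups called 17 of the 46 members, beside 17.3% of all 22264 probes tested. They were Ifit3, Usp18, Isg20, Samhd1, Bst2, Ifi35, Rtp4, Oas2, Oasl1, Ddx58, Gbp2, Gbp3, Gbp5, Gbp6, Gbp7, Igtp and Irgm2. Without slide 4 it called 3 members and 4.23% of all tested probes. In pairwise comparisons, a member was called at a Benjamini-Hochberg adjusted p below 0.05 over all tested probes and a change of at least 2-fold. By that rule 19 members were called in at least 1 of 12 comparisons, as were 25.9% of all tested probes. Gbp6, Ifit3 and Usp18 led with 4 comparisons each.

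TFH cells of pLN d12 had less signal than naive cells for most of the set. Of 46 members, 9 were called lower and 1 higher, where 5.48% and 9.27% of all tested probes were called in those directions. The 9 were the antiviral genes Usp18, Ifit3, Ifit2, Bst2 and Rtp4, the oligoadenylate synthetase genes Oas2 and Oasl1, the RNA sensor gene Ddx58 and the guanylate-binding protein gene Gbp7. The median log2 difference was -0.40 over the members and -0.09 over all tested probes. On all 3 pLN slides, including d25, 30 of 46 members lay lower in TFH than in naive cells, as did 42.0% of all tested probes.

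Oas2, whose product makes the oligoadenylates that switch on RNase L, was among the genes called lower. Its normalised intensity was 444 and 1142 on the naive d12 arrays and 65.2 and 44.9 on the TFH arrays, the second of which was not well above background. Naive cells were higher on both slides, and the log2 difference, with the undetected array at its measured value, was -3.72 (SE 0.52, adjusted p = 6.29e-04). The related gene Oasl1 read 1888 and 2444 in naive and 244 and 702 in TFH cells, a log2 difference of -2.38 (SE 0.58, adjusted p = 0.0153). Oasl2 differed by -1.39 without being called, while Oas1a and Oas3 read 0.31 and -0.22.

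Usp18, the protease that removes ISG15 from proteins and dampens signalling at the type I receptor, read 3309.9 and 5406 in naive and 489.8 and 1329 in TFH cells, a log2 difference of -2.39 (SE 0.51, adjusted p = 0.0077). Ifit3, a partner of the RNA-binding protein Ifit1, read 5276 and 6913 in naive and 677 and 2485 in TFH cells (log2 difference -2.22, SE 0.70, adjusted p = 0.0492). Ifit2 of the same family read 2244 and 2534 against 583 and 849 (log2 difference -1.76, SE 0.48, adjusted p = 0.0266). For these members the naive and TFH arrays did not overlap. Ifit1 had a log2 difference of -1.90 but was not called (adjusted p = 0.24). Its replicates lay apart, at 1485 and 3911 in naive and 232 and 1784 in TFH cells, and the cell types overlapped across slides. Within each slide TFH cells lay lower, and limma with slide as a fixed block called Ifit1 lower (SE 0.34, adjusted p = 0.00197).

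Bst2, the tetherin that holds budding virus at the cell surface, read 37958 and 35092 in naive and 12592 and 14954 in TFH cells (log2 difference -1.41, SE 0.29, adjusted p = 0.00657). Rtp4, a chaperone induced by interferon, read 19017 and 28637 against 7982 and 14209 (log2 difference -1.13, SE 0.34, adjusted p = 0.0381). Ddx58, which encodes the RNA sensor RIG-I, read 15279 and 16304 against 5348 and 6910.2 (log2 difference -1.38, SE 0.20, adjusted p = 7.23e-04). Among the sensors it was the sole call: Ifih1 (MDA5) had a log2 difference of 0.84, Dhx58 (LGP2) of -0.53 and Zbp1 of -0.11. Gbp7, a GTPase of the guanylate-binding family, read 2747 and 3007 in naive and 763 and 852 in TFH cells (log2 difference -1.83, SE 0.39, adjusted p = 0.00734). The other 5 guanylate-binding members differed by -0.89 to 0.53 and were not called.

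Mx1, a dynamin-like antiviral GTPase of which C57BL/6 mice are known to carry a defective allele, went the other way. It read 67.2 and 279.9 on the naive arrays, the first not well above background, and 1116 and 667 on the TFH arrays, a log2 difference of 2.65 (SE 0.60, adjusted p = 0.0105). On the d25 arrays it read 116 in naive cells, not well above background, and 642 in TFH cells. Its neighbour in the family, Mx2, read 267 and 955 against 233 and 443, with a log2 difference of -0.65 that was not called. Irf8 and Ifi44 were the other large differences without a call, at 1.66 and -1.81.

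The order of the called genes was alike at d25. There, with 1 array per cell type and no test, Oas2 read 730.0 in naive and 20 in TFH cells, the latter at the floor of the scale and not well above background. Usp18 read 5094 against 1338, Ifit3 7075 against 2419.9, and Gbp7 2451 against 697. Each of the 9 genes called lower at d12 lay lower in TFH than in naive cells at d25.

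None of the 3 members of antigen processing was called. Psmb8, an immunoproteasome subunit, read 83774 and 80203 in naive and 101556 and 79944 in TFH cells, a log2 difference of 0.14. Psmb9 and the peptide transporter gene Tap1 differed by 0.28 and 0.08. Isg15, the ubiquitin-like modifier whose protease Usp18 was lower, read 21302 and 27802 in naive and 28245 and 34112 in TFH cells, with a log2 difference of 0.35 that was not called.

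The first TFH array of pLN d12 also carried transcripts of germinal centre B and plasma cells, with those 4 markers summing to 54651 against 9346 on the second. Without the first array 3 members (Oas2, Gbp7 and Ddx58) were called lower and none higher, beside 4.19% of all tested probes called lower. Without naive replicate 1, 6 members were called lower, beside 3.39%, and without naive replicate 2, 4 lower and 1 higher, beside 5.92% lower. A fit with slide as a fixed block called 14 members, 12 of them lower, beside 8.10% of all tested probes called lower and 2460 of the 22264 higher. They held all 10 of the members above, with Ifit1, Ifi44 and Oasl2 lower and Irf8 higher in addition. Ifi44 passed the filter on dim probes through the naive group alone, so a call lower than naive cells was bound up with its selection.

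**Figure D2:**
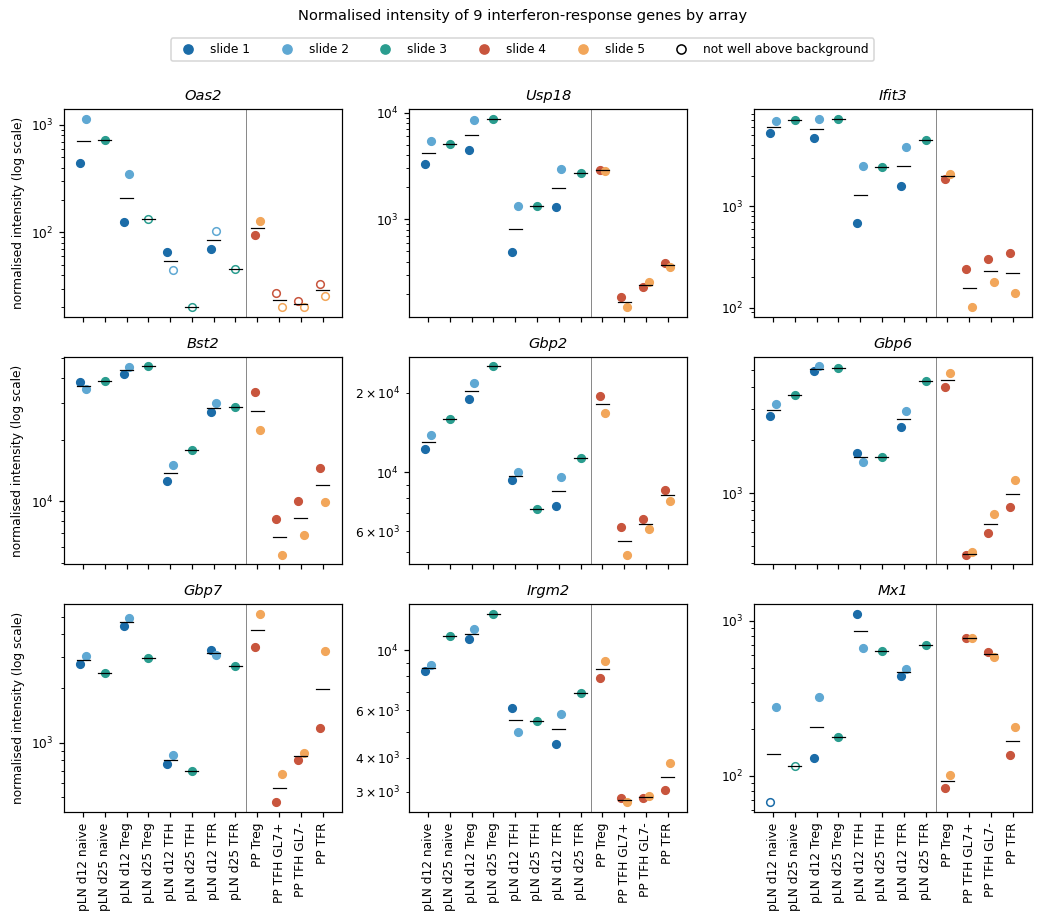
Normalised intensity (log scale) of 9 interferon-response genes by group, with 1 point per array coloured by slide, open where the probe was not well above background, and a black bar at the mean of the log values. The pLN d12 TFH bars lie below the naive bars in each panel but that of Mx1, and the PP groups lie right of the grey line.

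In Treg against naive cells of pLN d12, Gbp3 and Isg20 were called higher and no member lower, beside 2.86% of all tested probes called higher. Gbp3 read 921 and 1530.1 in naive and 5561 and 7577 in Treg cells, a log2 difference of 2.45 (SE 0.51, adjusted p = 0.0218). Isg20, an exonuclease that degrades RNA, read 12389.5 and 14961 against 28904 and 28450.2 (log2 difference 1.07, SE 0.19, adjusted p = 0.00956). The arrays of both cell types did not overlap for either gene. The d25 arrays read 1580.3 and 8128 for Gbp3. The 6 guanylate-binding members had a median log2 difference of 0.74, against 0.19 over all members. The largest differences without a call were those of Oas2 (-1.77), Ifi44 (-1.0) and Irf8 (0.97). Both calls were lost without naive replicate 1, without Treg replicate 1 and without Treg replicate 2, where 0, 0 and 1 members were called. The last was Oas2, called lower beside 0.526% of all tested probes. With slide as a fixed block Oas2 was called lower as well, beside 1.75% of all tested probes, as was Ifi44, which had passed the filter through naive cells alone.

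TFR cells of pLN d12 had less signal than Treg cells for 39 of the 46 members, and 3 were called: Gbp2, Igtp and Irgm2. All 3 were lower, where 2.56% of all tested probes were called lower, and 5.79% higher. The median log2 difference was -0.58 over the members and -0.08 over all tested probes. On all 3 pLN slides 38 members lay lower in TFR than in Treg cells, as did 39.3% of all tested probes.

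The called genes encode GTPases that act on pathogen vacuoles. Gbp2 read 18945 and 21876 in Treg and 7457 and 9637 in TFR cells (log2 difference -1.26, SE 0.19, adjusted p = 0.00221). Igtp, also known as Irgm3, read 62088 and 81748 against 25341 and 38028 (log2 difference -1.20, SE 0.23, adjusted p = 0.00748). Irgm2 read 10954 and 12019 against 4494 and 5818 (log2 difference -1.17, SE 0.19, adjusted p = 0.00315). Treg arrays lay above TFR arrays without overlap for each, and at d25 the same order held, with Gbp2 at 25230.0 and 11389. All 10 members of the guanylate-binding and immunity-related GTPase families had log2 differences below 0, among them Irgm1 at -0.85 and Iigp1 at -0.88.

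Larger differences without a call were found for Usp18 (-1.66, adjusted p = 0.0661), Oasl1 (-1.51) and Oasl2 (-1.35). Usp18 read 4466 and 8604 in Treg and 1312 and 2945 in TFR cells, with replicate 2 above replicate 1 in both and no overlap between the cell types. A fixed block for slide gave 10 members called lower, beside 4.25% of all tested probes. These were the 3 above with Usp18, Oasl1, Oasl2, Oas2, Ifit1, Ifit2 and Ifit3. Without TFR replicate 1, Gbp2 alone was called, beside 316 of the 22264 tested probes, and without TFR replicate 2, whose local background was 268 against 24 to 78 on the other arrays, 7 were called, beside 1.64%.

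Gbp7 was the sole member called in pLN d12 between the follicular cell types, and it was higher in TFR than in TFH cells, beside 2.81% of all tested probes. It read 763 and 852 in TFH and 3258 and 3049.6 in TFR cells, a log2 difference of 1.97 (SE 0.39, adjusted p = 0.0141). Both TFR arrays lay above both naive arrays, given above. Gbp3 (1.65), Oas1a (1.34) and Usp18 (1.28) had the largest differences without a call. Blocking on slide gave 5 members called higher in TFR cells (Bst2, Usp18, Oas1a, Gbp3 and Gbp7), beside 4.60% of all tested probes. Gbp7 lost its call when any 1 of the 4 arrays was left out.

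The difference between TFR and Treg cells was found again in PP, where 9 members were called lower in TFR cells and none higher. Of all tested probes, 3.02% were called lower and 6.23% higher. The 9 were Ifit3, Usp18, Bst2 and Samhd1 of the antiviral effectors, Oas2, the guanylate-binding genes Gbp6 and Gbp2, and the immunity-related GTPase genes Irgm2 and Igtp. The median log2 difference was -0.78 over the members and -0.05 over all tested probes. On both PP slides 39 of 46 members lay lower in TFR than in Treg cells, as did 44.9% of all tested probes.

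Ifit3 read 1869 and 2065 in PP Treg and 342 and 139 in PP TFR cells, a log2 difference of -3.17 (SE 0.70, adjusted p = 0.0145). Usp18 read 2894 and 2854 against 390.5 and 353 (log2 difference -2.95, SE 0.51, adjusted p = 0.00406). Gbp6 read 4048 and 4845 against 836 and 1183 (log2 difference -2.15, SE 0.21, adjusted p = 1.61e-04). Each of them had its replicates closer together than the cell types. Oas2 read 93.6 and 128 in Treg cells and 33.1 and 25.3 in TFR cells, where it was not well above background on either array. Treg cells were at least 3.78-fold higher (adjusted p = 0.0398), with each TFR array taken at the higher of its own value and the lowest signal detected on it, which was here its own value.

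Bst2 read 34268 and 22237 in PP Treg and 14580.4 and 9870.2 in PP TFR cells (log2 difference -1.20, SE 0.29, adjusted p = 0.0242). Samhd1, which breaks down deoxynucleotides, read 58215 and 58728 against 27349 and 29249 (log2 difference -1.05, SE 0.20, adjusted p = 0.006). Irgm2 read 7923 and 9093 against 3035 and 3831 (log2 difference -1.32, SE 0.19, adjusted p = 0.00129), Igtp 53704 and 55900.5 against 20992 and 26359 (log2 difference -1.22, SE 0.23, adjusted p = 0.00606), and Gbp2 19395 and 16851 against 8594 and 7832 (log2 difference -1.14, SE 0.19, adjusted p = 0.00324). Gbp2, Igtp and Irgm2 were thus lower in TFR than in Treg cells of both tissues, and their differences changed between the tissues by 0.12, -0.02 and -0.15 on the log2 scale, none of them called. Ifit1 (-1.95), Iigp1 (-1.90) and Gbp3 (-1.70) had large differences without a call. Gbp3 read 5823 and 11193 in Treg and 1729 and 3558 in TFR cells, with slide 5 above slide 4 for both.

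Slide 4, with its B-cell transcripts, held 1 array of each PP group. Without its 4 arrays, Gbp6 and Bst2 remained called lower of the 9, beside 1.51% of all tested probes, with each PP cell type down to 1 array whose spread is then taken from the other groups. With the slide block 17 members were called lower, beside 5.30% of all tested probes, and they held all 9. Within slide 5 alone the median log2 difference of the members was -0.82, and within slide 4 -0.76.

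**Figure D3:**
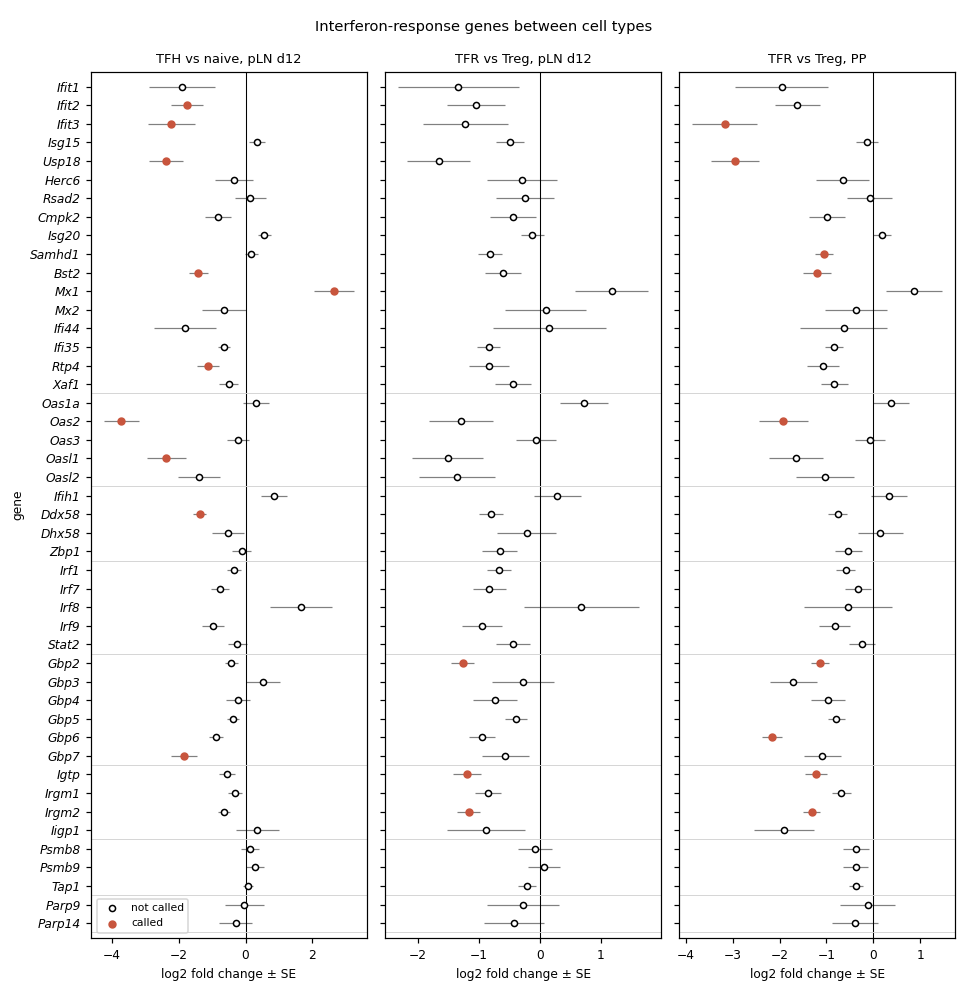
Log2 fold change ± SE of the 46 interferon-response genes between TFH and naive cells (left), TFR and Treg cells of pLN d12 (middle) and TFR and Treg cells of PP (right), with called members as filled points. Most points lie left of 0 in each panel, and Mx1 lies right of 0 in each.

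PP TFR cells differed less from PP GL7+ TFH cells. Gbp7 and Gbp6 were called higher in TFR cells, beside 2.34% of all tested probes, and no member lower. Gbp7 read 468 and 672 in TFH and 1206 and 3239 in TFR cells (log2 difference 1.82, SE 0.39, adjusted p = 0.0281), and Gbp6 446 and 461 against 836 and 1183 (log2 difference 1.13, SE 0.21, adjusted p = 0.0143). Mx1 read 781 and 780.3 in TFH and 137 and 205 in TFR cells, and its log2 difference of -2.22 was not called (adjusted p = 0.0848). Gbp3 (1.31) and Usp18 (1.17) were not called either. A slide block gave 6 members called higher, beside 4.09% of all tested probes, and Mx1 lower, beside 2.09%. Neither gene was called without either TFH GL7+ replicate or without TFR replicate 2, and Gbp7 alone without slide 4, beside 1.15% of all tested probes.

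Between the GL7+ and GL7- gates of PP TFH cells, no member was called by limma, where 0.00898% of all tested probes were, and 1 member had an unadjusted p below 0.05. Log2 differences ran from -0.59 for Gbp7, followed by Ifit3 (-0.58) and Gbp6 (-0.56), to 0.41 for Irf8, with a median of -0.12. The methods' t-test gave 2 members at a p below 0.05, of which 0 differed by at least 2-fold, and 0 after Benjamini-Hochberg adjustment with that fold.

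Cells of PP had less signal than the same cell type of pLN d12, with a median log2 difference over the members of -0.47 for Treg, -0.62 for GL7+ TFH and -0.69 for TFR cells, against -0.05, 0.03 and 0.00 over all tested probes. No member was called higher in PP. Lower in PP were 1 member in Treg, 5 in TFH and 6 in TFR cells, where 0.422%, 2.18% and 5.39% of all tested probes were called lower. The tissues lay on different slides. The labels name an immunisation for pLN alone, while the wording of the methods can be read to cover PP. Tissue, slide and any difference in immunisation cannot be told apart. Both PP arrays lay below both pLN arrays for 27 members in Treg, 32 in TFH and 27 in TFR cells, and for 22.8%, 20.7% and 27.0% of all tested probes.

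Ifit3, Usp18, Gbp6 and Rtp4 were called in both follicular cell types. Ifit3 read 677 and 2485 in pLN TFH and 241 and 101 in PP TFH cells (log2 difference -3.06, SE 0.70, adjusted p = 0.033), and 1594 and 3842 in pLN TFR against 342 and 139 in PP TFR cells (log2 difference -3.50, SE 0.70, adjusted p = 0.00823). Usp18 differed by -2.29 and -2.40, Gbp6 by -1.82 and -1.41, and Rtp4 by -1.35 and -1.29. Rtp4 read 10133 and 17025 in pLN TFR and 5192 and 5589 in PP TFR cells. None of the PP arrays overlapped with the pLN arrays for these 4 genes.

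Rsad2, the viperin gene, was called in TFH cells alone, at 717 and 1286 in pLN and 278 and 183 in PP (log2 difference -2.09, SE 0.47, adjusted p = 0.0319). Its genomic neighbour Cmpk2, a nucleotide kinase gene, was called in TFR cells alone, at 684 and 1186 in pLN and 242 and 305 in PP (log2 difference -1.73, SE 0.38, adjusted p = 0.0132). Each had a value of the same sign in the other follicular cell type, with Rsad2 at -1.13 in TFR and Cmpk2 at -1.21 in TFH cells. Bst2 was called in TFR cells, at 27243 and 30025 in pLN and 14580.4 and 9870.2 in PP (log2 difference -1.25, SE 0.29, adjusted p = 0.0171). In a test of the difference between the 2 cell types, added after the data were seen, the PP against pLN log2 difference of TFR cells minus that of TFH cells was 0.96 (SE 0.67) for Rsad2, -0.52 (SE 0.54) for Cmpk2 and -0.22 (SE 0.42) for Bst2, each with an adjusted p of 1 by limma.

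In Treg cells Isg20 was the sole call, at 28904 and 28450.2 in pLN and 15766 and 12889.7 in PP (log2 difference -1.01, SE 0.19, adjusted p = 0.0225), and it was lost without any 1 of the 4 arrays, and with slide as a random block, where 0 members were called. Ifit3 (-1.55), Rsad2 (-1.29) and Ifi44 (-1.18) had larger differences without a call. Neither Treg group had Ifi44 detected on both of its arrays, so the Ifi44 value includes signals not well above background. The 6 guanylate-binding members read from -0.34 to 0.31 there. In TFH cells the largest differences without a call were those of Iigp1 (-1.71), Oasl1 (-1.59) and Oasl2 (-1.50), and in TFR cells those of Ifi44, Oas2 and Iigp1 (-1.51). Ifi44 and Oas2 were not well above background on either PP TFR array and on 1 of the pLN TFR arrays each. They read 36 and 173 and 70 and 104 in pLN TFR cells, and no fold is given for them.

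A random block for slide left 5 members called lower in TFH cells (Usp18, Rsad2, Gbp6, Rtp4 and Bst2) beside 167 of the 22264 tested probes, and the same 6 in TFR cells, beside 4.11%. Without slide 4, Gbp6 and Bst2 were called in TFH cells, beside 0.368% of all tested probes. In TFR cells 7 were then called, beside 4.10% of all tested probes: Ifit3, Irf8, Bst2, Zbp1, Gbp6, Psmb8 and Psmb9, of which 3 were among the 6. Single arrays also moved these counts. In TFH cells Gbp6 and Irgm2 were called without pLN TFH replicate 2, beside 0.759% of all tested probes. Gbp6 alone was called there without PP TFH replicate 1 or 2, beside 0.454% and 0.885%. In TFR cells Gbp6 alone was called without pLN TFR replicate 2, beside 3.67%, and Cmpk2, Gbp6 and Gbp7 without PP TFR replicate 2, beside 3.99%.

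**Figure D4:**
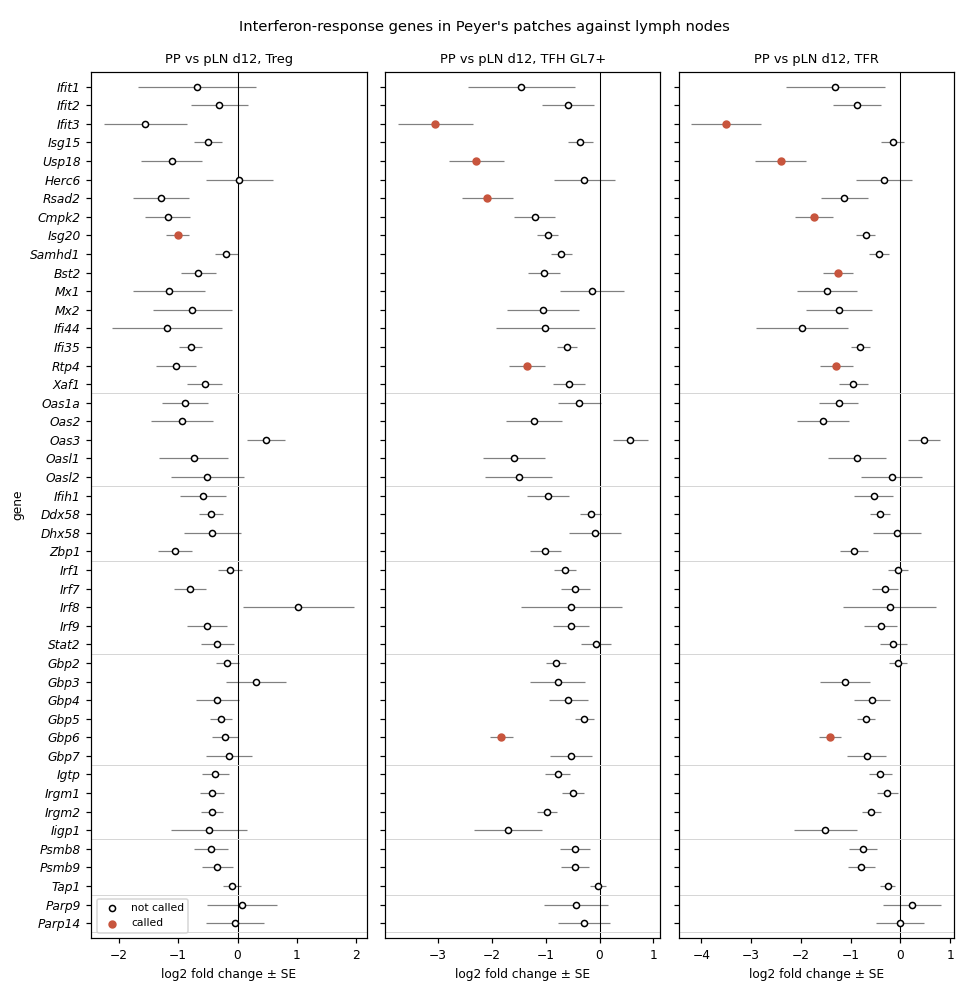
Log2 fold change ± SE of the 46 interferon-response genes in PP against pLN d12 for Treg (left), GL7+ TFH (middle) and TFR cells (right), with called members as filled points. Points lie left of 0 for 41, 45 and 44 of the members in turn.

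The difference of TFR from Treg cells was then set against itself in the other tissue. No member was called by limma for a change in it, where 0.548% of all tested probes were called, and 1 member had an unadjusted p below 0.05. The change was largest for Ifit3 (-1.95), Gbp3 (-1.43) and Usp18 (-1.30), where negative values mean a larger drop in PP. Under the slide block Gbp3, Usp18 and Gbp6 were called, each with the larger drop in PP, beside 2.30% of all tested probes. Gbp6 had an adjusted p of 0.0131 with the block and 0.153 without it. The same test for TFR against TFH cells called 0 members by limma, with 1 at an unadjusted p below 0.05, where 0.611% of all tested probes were called.

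Time after immunisation gave no call. The mean of the 4 pLN cell types at d25 differed from that at d12 for 0 members by limma, where 0.0404% of all tested probes were called, and 4 members had an unadjusted p below 0.05. Values at d25 were lower for 6 of the 46 members and for 49.2% of all tested probes. The median log2 difference was 0.21 over the members and 0.00 over all tested probes. Oasl2 had a log2 difference of 0.73. The fitted values of Ifi44 (1.27) and Oas2 (-0.74) include arrays on which they were not well above background, among them 1 and 3 of the 4 d25 arrays. The d25 arrays shared a slide of their own. They had RNA input (40 ng) and scan day in common with d12 replicate 2, but not with d12 replicate 1 (50 ng). The per-array median of the members was 0.02 to 0.73 at d25. It was 0.12 to 0.91 on d12 replicate 2 and -0.28 to 0.46 on d12 replicate 1. Whether input or scan day contributed was not tested.

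Among the transcription factors, none was called in any of the 12 comparisons. Irf1, which is induced by interferon gamma, read 38166 and 41752 in naive, 37876 and 25823 in TFH, 35391 and 40337 in Treg and 22091 and 25662 in TFR cells of pLN d12. Irf7, which amplifies type I interferon responses, read 3373 and 3037, 2061 and 1709.8, 3589 and 3114 and 1818 and 1954 in the same order. TFH and TFR arrays lay below naive and Treg arrays for Irf7, without overlap. Stat2 read 3299 and 4871, 3163 and 3610.3, 3580.2 and 5779 and 2708 and 4153, with overlap between all 4. Irf9, its partner, had log2 differences of -0.98 between TFH and naive cells (adjusted p = 0.0685) and of -0.95 between TFR and Treg cells (adjusted p = 0.104).

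Irf8, a factor that B cells and myeloid cells also express, followed another order than most of the set. In pLN d12 it read 1047 and 1215 in naive, 4576 and 2795 in TFH, 2123 and 2293 in Treg and 3478 and 3614 in TFR cells, so naive cells were lowest there. In PP it read 8809.8 and 2277 in Treg and 10157 and 921 in TFR cells, with slide 4 above slide 5 in both. The B-cell markers on these arrays summed to 117586 and 15043 for Treg and 177225 and 13487 for TFR cells, and the part of B cells in the Irf8 values was not tested. On slide 5, Irf8 was at 921 in TFR cells, below all 6 TFH and TFR arrays of pLN. Its TFR difference between tissues was -0.21 over both slides and -1.94 (adjusted p = 0.024) without slide 4.

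**Figure D5:**
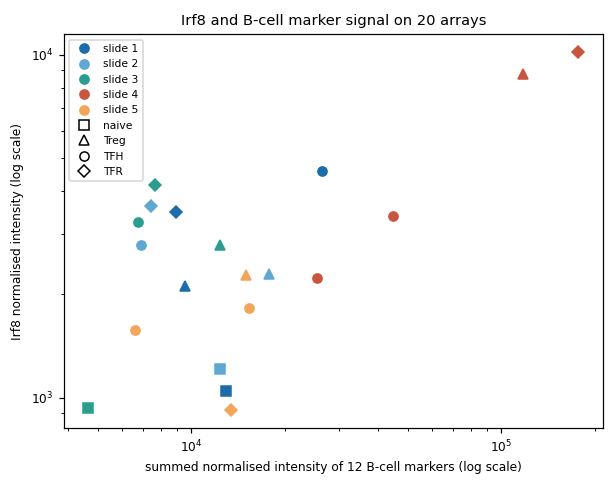
Irf8 normalised intensity against the summed normalised intensity of 12 B-cell markers on the 20 arrays (both axes logarithmic), coloured by slide with the cell type as marker shape. The Treg and TFR arrays of slide 4 are highest on both axes.

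Outside the set, 62 other genes of the interferon pathway were listed, of which 58 could be tested. Between TFH and naive cells 8 of the 58 were called lower and 7 higher, beside 5.48% and 9.27% of all tested probes. The median log2 difference of the 58 was -0.07. Receptor genes were among those lower in TFH cells: Ifnar1 (log2 difference -1.11, SE 0.15, adjusted p = 5.26e-04), Ifngr1 (log2 difference -1.17, SE 0.30, adjusted p = 0.0191) and Ifngr2 (log2 difference -2.42, SE 0.74, adjusted p = 0.0432). Ifnar1 read 3756 and 3662 in naive and 1782 and 1668 in TFH cells, with no overlap.

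Ifng, the gene of interferon gamma itself, was higher in TFH cells. It was not well above background on either naive array and read 1234 and 2603 in TFH cells, at least 29.1-fold higher (adjusted p = 6.90e-05). Cxcl10, a chemokine gene induced by interferon gamma, was at least 15.3-fold higher in TFH cells (adjusted p = 2.77e-04). Ifitm2 (3.12), Ifitm1 (3.53), Irf5 (1.87), Ifi204 (1.81) and Jak2 (1.58) made up the rest of the genes called higher. Slfn8 (-2.63), Ifi203 (-1.63), Mb21d1 (-1.58), Tgtp1 (-1.57) and Sp100 (-1.07) made up the rest of those called lower.

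Between TFR and Treg cells 5 pathway genes were called lower and 3 higher in pLN d12, and 10 lower and 2 higher in PP. The shares of all tested probes were 2.56% lower and 5.79% higher in pLN, and 3.02% lower and 6.23% higher in PP. Gbp2b, a further guanylate-binding gene, was at least 5.78-fold higher in Treg than in TFR cells of pLN (adjusted p = 1.86e-04), where it was not well above background on either TFR array, and its log2 difference in PP was -4.98 (SE 0.31, adjusted p = 1.84e-05). Tgtp1 and Tgtp2, near-identical immunity-related GTPase genes whose probes may share transcripts, were called lower in TFR cells, with log2 differences of -2.26 and -1.81 in pLN and of -2.59 and -1.87 in PP. Ifngr1 was called lower in TFR cells of PP (log2 difference -1.91, SE 0.30, adjusted p = 0.00224). Ifngr1 read 53038 and 67653 in PP Treg and 11606 and 21759.8 in PP TFR cells. Socs1 and Socs3, which inhibit Jak and Stat signalling, were called lower in PP TFR cells, at -1.45 and -2.86. Ifng was higher in TFR than in Treg cells of pLN (log2 difference 3.42, SE 0.59, adjusted p = 0.00463), read 77.8 and 136 in Treg and 79 and 173 in TFR cells of PP, and was lower in PP TFR than in pLN TFR cells (log2 difference -3.85, SE 0.59, adjusted p = 0.0025).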

How the data were processed

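Single-colour Agilent arrays (20, in 12 groups, on 5 slides of 4) held AlexaFluor555-labelled cRNA made, per the labels, from 40 or 50 ng total RNA per sort. Slides 1 and 4 held the 50 ng samples, and the other slides those of 40 ng. The authors deposited spot intensity tables from Agilent Feature Extraction 10.7.3.1 with spot flags, and a table of linear intensity values averaged, quantile normalised and scaled to a 75th percentile of 1500. Probe coordinates were not used, and sequences are RefSeq's (GRCm38.p6). From the deposited spot intensity, processed signals that passed the flags were averaged over 4 features per probe (geometric mean), quantile normalised and brought to the same 75th percentile, and values under 20 were raised to 20 before log2 was taken. The median absolute difference from the deposited table was 0.0347 to 0.0362 in log2 units. A probe was detected with at least 3 features well above background. Between 43 and 58% of 39429 probes were detected per array, no feature was saturated, and 22264 probes were tested. With 2 arrays per group, their number limits the precision. Replicates correlated at 0.955 to 0.986.

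One limma model (3.58.1, R 4.3.3) over all 12 groups gave 12 comparisons, with Benjamini-Hochberg adjustment over all tested probes, a threshold of 0.05 and a 2-fold change. The F test called a probe at p below 0.001 and adjusted p below 0.005. The script was tested on simulated data. The 46 members, the pathway list and the marker lists were chosen with earlier results of these data known. Per comparison, every called member and the 3 largest differences without a call were named, with values per array for called members and Irf1, Irf7, Irf8, Stat2, Isg15 and Psmb8. No fold is given between probes. Values of a pathway gene that is withheld are not reported here. All 44 member probes whose accession RefSeq's table holds carry the same symbol there. Alternatives were other scalings and backgrounds, the deposited table, no filter, all probes of a gene, slide as a block, fewer groups or arrays in the fit, and the methods' t-test. The random block had a consensus correlation of 0.74 within slides.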

Additional observations from a re-analysis of the deposited data

How the results depend on the processing

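Counts of called members depended most on how the spread was estimated. They stand here without the share of all tested probes in each setting, so they describe the processing and not the members. With only the compared groups in the fit, which leaves few arrays, 2 members were called between TFH and naive cells in place of 10, and 0 in each other comparison that had calls. With slide as a fixed block the counts were 4 for Treg against naive cells, 10 for TFR against Treg, 5 for TFR against TFH in pLN, 17 and 7 for the same pairs in PP, and 3 for the difference in the step. With slide as a random block 0 were called between tissues in Treg cells. Leaving out replicate 1 of all PP groups gave 2 for TFR against Treg and 1 for TFR against TFH in PP, 0 and 2 between tissues in Treg and TFH cells, and 3 by the F test. Scaling to the 75th percentile alone gave 4 for Treg against naive, 2 for TFR against TFH in pLN, and 3, 8 and 13 between tissues in Treg, TFH and TFR cells. Under that scaling the median log2 difference of all tested probes between tissues was -0.12, -0.02 and -0.08 in these cell types. Without the filter 1 was called for Treg against naive, for TFR against TFH in PP and between tissues in TFH cells, and with the mean of all probes 1 and 8 in the last pair of comparisons. Leaving out 1 array at a time, so that a group's lone array is taken to vary like the others, gave 3 to 11 for TFH against naive, 0 to 2 for Treg against naive, 1 to 7 and 0 to 1 for TFR against Treg and TFH in pLN, 7 to 8 and 0 to 2 in PP, 0 to 0, 1 to 5 and 1 to 5 between tissues in Treg, TFH and TFR cells and 13 to 18 by the F test. The other 117 counts moved by less than 1.5 times. Of single named members, 715 values kept direction and call, 149 lost and 27 gained the call, and 2 turned, both of them uncalled: Ifi44 between Treg and naive cells without Treg replicate 1 (range -2.05 to 0.043) and Ifit3 between the GL7 gates without GL7+ replicate 2 (range -1.21 to 0.056). Beyond the smaller number of arrays in a fit, the causes were not tested.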

Other observations

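For 18 members the array held further probes, and these did not always give the same call. A second Xaf1 probe was called lower in TFH than in naive cells (-1.48 on the log2 scale, adjusted p = 0.00542 by limma) where the brighter probe read -0.51. A second Ifih1 probe was called higher in that comparison (1.32, adjusted p = 0.013). A second Iigp1 probe was called lower in PP TFR than in PP Treg cells (-2.80, adjusted p = 0.00158) and lower in PP than in pLN for TFH (-2.60) and TFR cells (-2.35). The second Xaf1 probe was also called lower in PP TFR than in PP Treg cells (-1.37) and in PP than in pLN TFR cells (-1.47). A further Samhd1 probe was called lower in PP than in pLN TFH cells (-1.51). For Gbp5 the second probe had the opposite sign between PP TFR and PP Treg cells, 0.40 against -0.80. Some calls were not shared by a second probe of the same sign. These were Isg20 between tissues in Treg cells (-0.64) and Ddx58 between TFH and naive cells (-1.56). For Samhd1 between PP TFR and Treg cells, 1 further probe lacked the call (-1.31) and another had it (-1.59). The second Gbp6 probe lacked the call between PP TFR and TFH cells (1.04) and between tissues in TFH (-1.60) and TFR cells (-1.25). The second probe was called as well for Gbp6 between PP TFR and Treg, Isg20 between Treg and naive, and Cmpk2 between tissues in TFR cells.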
